A study of Mus musculus with 12 samples.

Results

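Genes of polycystic and cystic kidney disease were described in RNA-seq libraries of IMCD3 cells, a mouse cell line from the inner medullary collecting duct. The 10 genes were chosen by name, as genes of this disease, at a time when earlier results of these data were known: Pkhd1, Pkd1, Pkd2, Cys1, Bicc1, Dzip1l, Glis2, Glis3, Ganab and Prkcsh. Each was found once among the 48034 genes of the deposited table, and each reached 1 FPKM (fragments scaled to transcript length and library depth) in at least 3 libraries, the filter for testing. Mutations of these genes cause cystic kidney disease in human patients or, for Cys1 and Bicc1, are best known from mutant mice.

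The study compared 4 groups of 3 libraries each (A, B and C): mifepristone with 100 mM added NaCl, vehicle with 100 mM added NaCl, mifepristone alone, and vehicle alone. The cells of all 4 groups were the IMCD3 subclone 53a, a single clone grown in low glucose medium with serum. Mifepristone is the inducer in this subclone: from what is known of the study, it turns on a mutated, dominant-negative form of a kidney tubule transcription factor. The vehicle cells carry the same inducible construct. No cells without the mutant were included, so an action of mifepristone itself cannot be told apart from that of the mutant. The added NaCl makes the medium hypertonic, as the interstitium of the renal medulla is.

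Most proteins of these genes act at or near the primary cilium, a sensory organelle on the apical side of tubule cells. Polycystin-1 and polycystin-2, the products of Pkd1 and Pkd2, form a receptor and channel complex there, and fibrocystin, the product of Pkhd1, lies on the same membranes. Loss of these proteins turns tubules into fluid-filled cysts, and glucosidase II in the endoplasmic reticulum, encoded by Ganab and Prkcsh, is needed for polycystin-1 to mature.

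Promoter sequences from RefSeq (GRCm38.p6) were matched by symbol to 8 of the 10 genes, with 9 promoters because Dzip1l has a pair of starts. They were searched on both strands for GTTAAT, a short homeodomain factor motif, in the 250 bases before the start of transcription. Of these 9 promoters 1 held the motif (11.1%), that of Pkhd1, at 79 bases before the start on the sense strand, and over all promoters of the same length 2113 of 32851 held it (6.43%). A match is a description of the letters and not a binding site. The promoters of Pkhd1 (chr1:20618058-20618307, minus strand), Cys1 (chr12:24681796-24682045, minus strand) and Pkd1 (chr17:24549700-24549949, plus strand) are printed because Pkhd1 and Cys1 fell furthest with mifepristone and Pkd1 was the 1 gene that rose. Each is written 5′ to 3′ and ends at the base before the start. The motif is in capitals.
Pkhd1: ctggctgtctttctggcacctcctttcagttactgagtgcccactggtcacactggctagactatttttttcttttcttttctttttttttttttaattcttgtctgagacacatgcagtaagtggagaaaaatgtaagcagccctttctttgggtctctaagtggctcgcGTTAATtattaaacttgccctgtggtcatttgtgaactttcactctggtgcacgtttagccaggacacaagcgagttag
Cys1: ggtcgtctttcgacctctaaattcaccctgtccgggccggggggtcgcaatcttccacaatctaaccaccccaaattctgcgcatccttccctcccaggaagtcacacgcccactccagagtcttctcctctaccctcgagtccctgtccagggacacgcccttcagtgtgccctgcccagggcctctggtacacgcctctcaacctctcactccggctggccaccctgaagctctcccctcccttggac
Pkd1: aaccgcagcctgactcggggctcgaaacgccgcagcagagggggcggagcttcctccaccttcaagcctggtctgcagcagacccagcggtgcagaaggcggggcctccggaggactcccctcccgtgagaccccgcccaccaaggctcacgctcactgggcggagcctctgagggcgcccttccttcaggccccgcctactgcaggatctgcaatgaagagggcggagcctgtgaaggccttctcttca
The promoter of Pkhd1 had the lowest GC content of these 3, at 42%, against 61.2% for Cys1 and 67.2% for Pkd1.

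Reads recovered from the deposited values summed to between 41940955 and 49270776 per library. The epithelial marker genes Cdh1, Epcam, Krt8, Krt18 and Krt19 summed to 633 FPKM with mifepristone and NaCl and 470.6 FPKM with vehicle and NaCl, and to 883 FPKM with mifepristone alone and 701 FPKM with vehicle alone. Of 9 collecting duct markers 5 stayed below 1 FPKM in every group mean, among them the water channel gene Aqp2, with at most 6 reads in a library, and the list summed to 107.1 and 107 FPKM with mifepristone, with and without NaCl, against 117 and 74.6 FPKM with vehicle. Fibroblast markers summed to 3.13 FPKM with mifepristone and NaCl and 0.284 FPKM with vehicle and NaCl, and to 5.89 FPKM with mifepristone alone and 0.313 FPKM with vehicle alone. Nearly all of the mifepristone sums was Dcn (decorin), while Col1a1, Col1a2, Pdgfra and Lum stayed below 0.21 FPKM in every group mean, and the part of this marker list in the results was not tested. Intercalated cell markers summed to 1.58 and 1.47 FPKM with mifepristone, with and without NaCl, against 0.0729 and 0.319 FPKM with vehicle, with and without NaCl. In the same order Slc26a4 had 1.36 and 0.467 FPKM with mifepristone and 0.026 and 0.053 FPKM with vehicle. Atp6v1b1 had 0.022 and 0.965 FPKM with mifepristone and 0.018 and 0.245 FPKM with vehicle, so different genes led the mifepristone sums. Proximal tubule markers summed to 0.484 and 0.464 FPKM with mifepristone, against 1.31 and 1.36 FPKM with vehicle, in the same order of media. Most of the vehicle sums was Lrp2, which had 0.153 and 0.207 FPKM with mifepristone and 0.923 and 1.196 FPKM with vehicle. Cubn was the largest part with mifepristone, at 0.288 and 0.245 FPKM, against 0.156 and 0.1245 FPKM with vehicle. Immune markers summed to 5.42 and 4.05 FPKM with mifepristone, against 3.15 and 3.18 FPKM with vehicle, nearly all of it Cd68, and endothelial markers stayed at or below 0.5 FPKM. The part of these lists in the results was not tested either. Mifepristone C and vehicle A stood apart from the other libraries of their groups by low values of genes with long exons, with a Spearman's rho of -0.51 and -0.44 between a gene's deviation from its group mean and its exon length, across genes. The part of this trend in the results was not tested. Where a call of the 10 genes changed without both of these libraries, that is given beside the result.

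In FPKM, which is per length and so lets genes be compared, Ganab was the most abundant of the 10 in all 4 groups, at 132 to 156 FPKM in group means. With mifepristone and NaCl the order below it was Prkcsh, Bicc1, Pkd2, Glis2, Glis3, Pkd1, Dzip1l, Pkhd1 and Cys1. Of these neighbours only Glis3 and Pkd1 overlapped between libraries. Vehicle with NaCl gave the order Bicc1, Prkcsh, Glis2, Glis3, Pkd2, Pkhd1, Cys1, Dzip1l and Pkd1, with an overlap between Pkhd1 and Cys1. With mifepristone alone it was Prkcsh, Bicc1, Glis2, Pkd2, Glis3, Pkd1, Dzip1l, Cys1 and Pkhd1, with overlaps between Glis3 and Pkd1 and between Cys1 and Pkhd1. In vehicle cells it was Bicc1, Prkcsh, Glis2, Glis3, Pkd2, Cys1, Pkhd1, Dzip1l and Pkd1. There Pkd2 overlapped Cys1, and Cys1 overlapped Pkhd1. Pkd1 was thus the lowest of the 10 in both vehicle groups and lay above Dzip1l, Cys1 and Pkhd1 in both mifepristone groups.

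**Figure D1:**
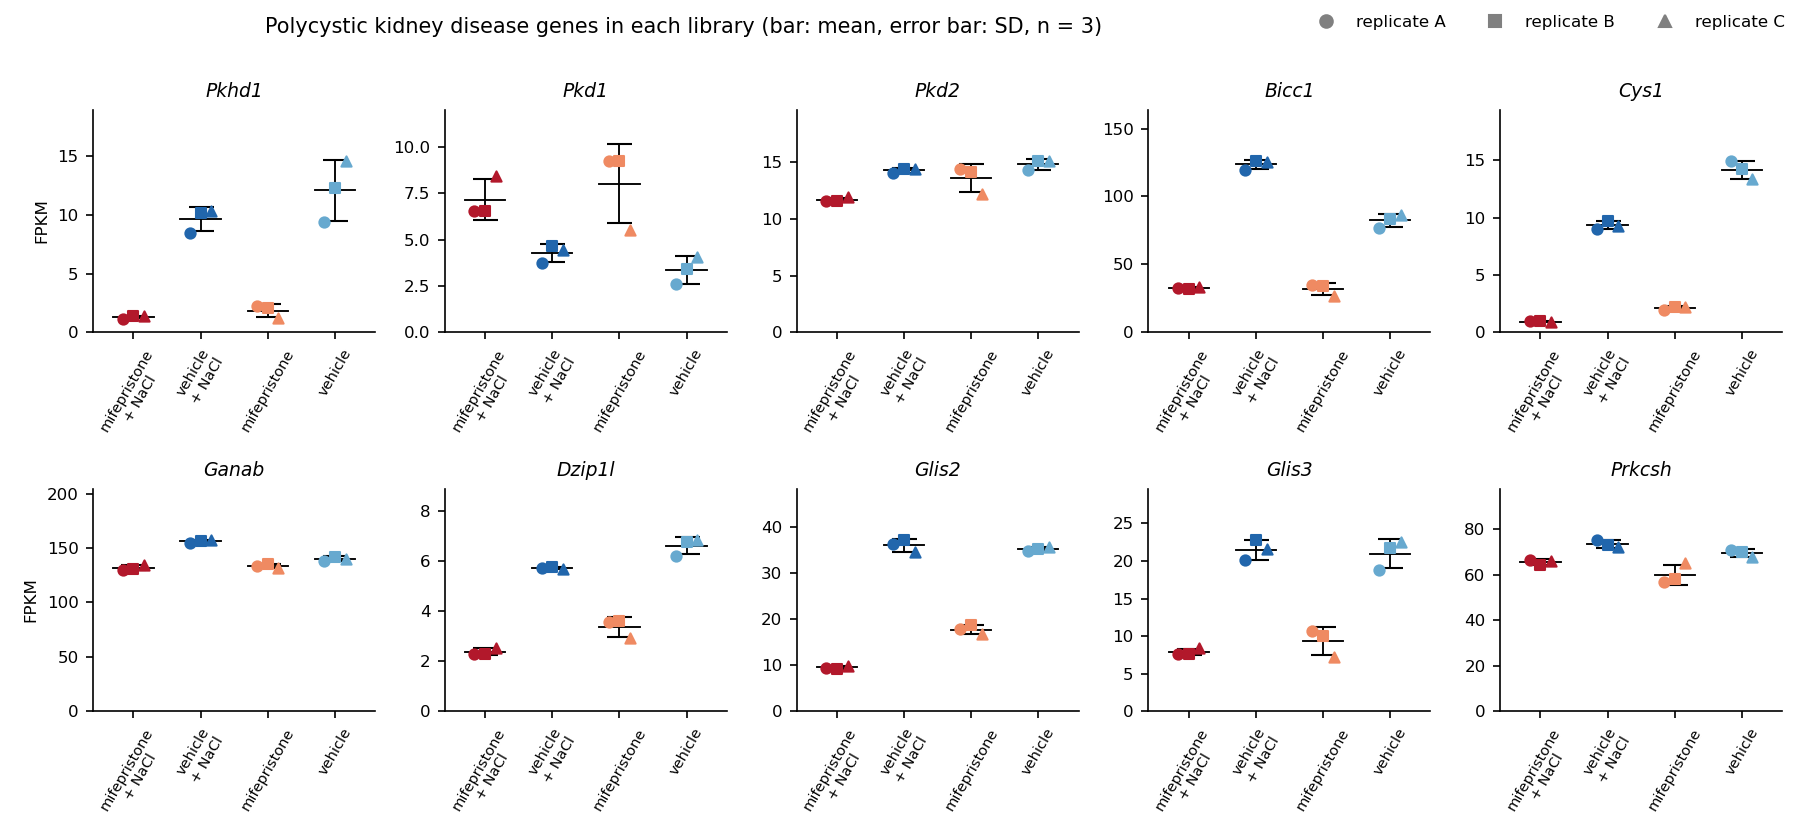
FPKM of the 10 genes in each of the 12 libraries, 1 panel per gene with its own axis from 0. Symbols are libraries A, B and C, the long bar is the group mean and the error bar its SD (n = 3). Mifepristone libraries lie below vehicle libraries for Pkhd1, Bicc1, Cys1, Dzip1l, Glis2 and Glis3, and above them for Pkd1.

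The first question was what mifepristone did to these genes in cells without added NaCl. The genes of fibrocystin, cystin, bicaudal C, Dzip1l and both Glis factors fell, Prkcsh fell slightly, and Pkd1 rose. In all 7 of the 10 genes fell and 1 rose by limma at an adjusted p under 0.05, where 59.7% of the 14044 tested genes were called, 31.5% lower and 28.3% higher. Among called genes, the estimated fall was at least 2-fold for 4 of the 10 (Cys1, Pkhd1, Bicc1 and Glis3). Such falls were called for 2.33% of all tested genes. An estimated rise of at least 2-fold was called for 1 of the 10 (Pkd1), against 4.09% of all tested genes. The test was against no change, so the 2-fold limit, here and below, is a cut on the estimate. The confidence intervals of Glis3 (-1.40 to -0.88) and Pkd1 (0.69 to 1.56) include changes under 2-fold. The median log2 fold change of the 10 was -0.93, against -0.01 over all tested genes. All fold changes are on the log2(FPKM + 0.5) scale, which understates the change of low genes. The labels do not tell separate cultures from repeat libraries of 1 culture, so the spread that p-values measure here may be technical. In whole cultures fewer cells of a type and less RNA per cell cannot be told apart.

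With added NaCl in both arms, 9 of the 10 genes fell with mifepristone and Pkd1 rose, where 58.7% of all tested genes were called, 31.9% lower and 26.8% higher. Among called genes, the estimated fall was at least 2-fold for 6 of the 10 (Cys1, Pkhd1, Bicc1, Glis2, Glis3 and Dzip1l). Such falls were called for 2.51% of all tested genes. An estimated rise of at least 2-fold was called for 0 of the 10, against 4.15% of all tested genes. The confidence interval of Dzip1l (-1.27 to -0.96) includes falls under 2-fold. The median of the 10 was -1.25, against -0.03 over all tested genes.

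**Figure D2:**
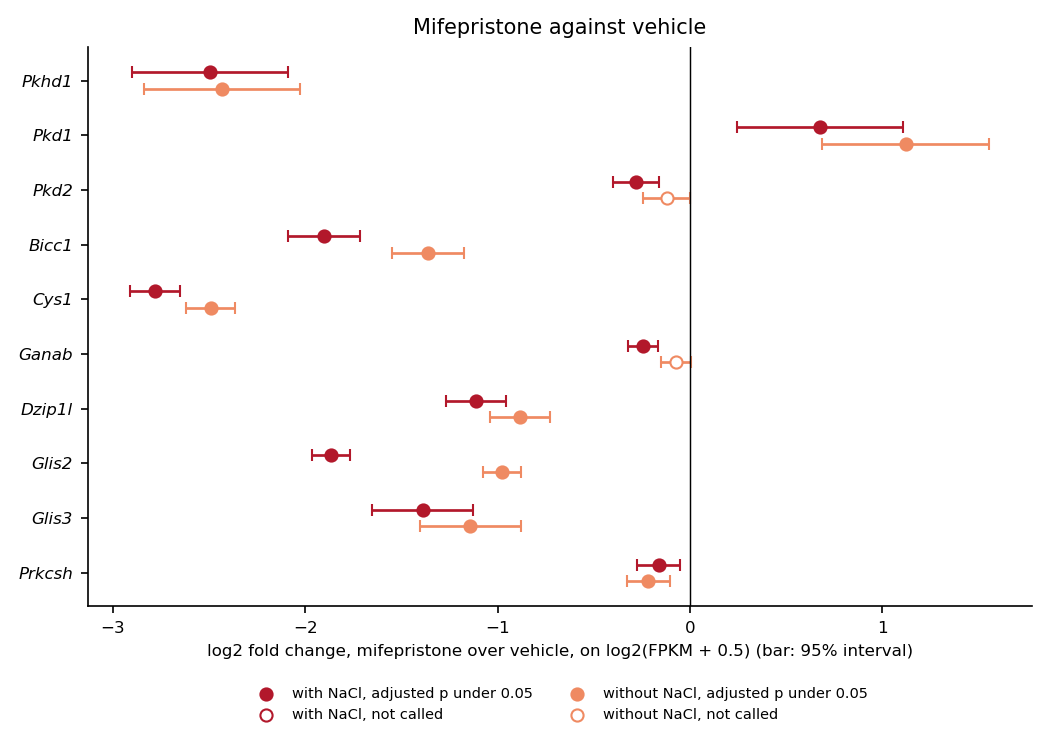
log2 fold changes of mifepristone over vehicle for the 10 genes, with NaCl (dark red) and without NaCl (orange), on the log2(FPKM + 0.5) scale. Points are limma estimates, bars their 95% intervals, and open points did not pass an adjusted p under 0.05. Cys1 and Pkhd1 lie lowest, and Pkd1 alone lies above 0.

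Among the genes of cyst membrane proteins, Pkhd1 (ENSMUSG00000043760, chromosome 1, 20057779 to 20618064, minus strand, GRCm38) encodes fibrocystin, whose loss causes autosomal recessive polycystic kidney disease. It had 1.16, 1.34 and 1.38 FPKM in mifepristone libraries A, B and C with NaCl, against 8.44, 10.1 and 10.4 FPKM in vehicle libraries with NaCl. Without NaCl it had 2.27, 2.07 and 1.21 FPKM in mifepristone libraries, against 9.42, 12.3 and 14.6 FPKM in vehicle libraries. The lowest vehicle library was thus well above the highest mifepristone library in both media, and within the mifepristone group library C was lowest while within the vehicle group it was library A. The fall was 5.63-fold with NaCl (log2 fold change -2.49, SE 0.184, limma adjusted p = 4.91e-07) and 5.4-fold without it (-2.43, SE 0.184, limma adjusted p = 6.26e-07). Only 0.171% of tested genes had a value as low or lower without NaCl. Without vehicle A and mifepristone C the fall without NaCl was -2.38.

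Pkd1 (ENSMUSG00000032855, chromosome 17, 24549834 to 24596508, plus strand) encodes polycystin-1, the receptor-like protein mutated in most families with autosomal dominant disease. Its level was 6.53, 6.52 and 8.43 FPKM in mifepristone libraries with NaCl, against 3.74, 4.67 and 4.43 FPKM in vehicle libraries with NaCl. Without NaCl it was 9.25, 9.24 and 5.54 FPKM in mifepristone libraries, against 2.59, 3.44 and 4.07 FPKM in vehicle libraries. The groups did not overlap, although mifepristone C lay closer to the vehicle libraries than to mifepristone A and B. The rise was 1.6-fold with NaCl (0.68, SE 0.196, limma adjusted p = 0.0119) and 2.18-fold without it (1.12, SE 0.196, limma adjusted p = 0.000493), and 1.20 on the log2 scale without vehicle A and mifepristone C. Exons of Pkd1 overlap those of Tsc2 on the opposite strand, and whether the authors' counting used strand is not given in the sources used here. Tsc2 averaged 10.5 FPKM with mifepristone and NaCl and 14.2 FPKM with vehicle and NaCl. It averaged 10.35 FPKM with mifepristone alone and 12.6 FPKM with vehicle alone. Whether reads of Tsc2 enter the values of Pkd1 was not tested.

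Pkd2 (ENSMUSG00000034462, chromosome 5, 104459450 to 104505819, plus strand) encodes polycystin-2, the cation channel of the complex. It had 11.5, 11.5 and 11.9 FPKM in mifepristone libraries with NaCl, against 14.0, 14.4 and 14.4 FPKM in vehicle libraries with NaCl. Without NaCl it had 14.4, 14.2 and 12.2 FPKM in mifepristone libraries, against 14.3, 15.1 and 15.1 FPKM in vehicle libraries. These groups were apart with NaCl and overlapped without it. The fall with NaCl was 1.21-fold (-0.28, SE 0.054, limma adjusted p = 0.001), and without NaCl the difference was -0.12 (SE 0.054, limma adjusted p = 0.0761). Without mifepristone A the difference without NaCl was -0.16 and passed (limma adjusted p = 0.0293), as it did under quantile normalization (-0.15). It shrank to -0.05 without mifepristone C (limma adjusted p = 0.228) and to -0.07 without vehicle A and mifepristone C (limma adjusted p = 0.0638), so its size rests on single libraries. The 3 membrane protein genes therefore differed in direction and size, with Pkhd1 far down, Pkd1 up and Pkd2 down by a small amount with NaCl.

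Of the genes for proteins of the cilium and its base, Cys1 (ENSMUSG00000062563, chromosome 12, 24665833 to 24681813, minus strand) encodes cystin, a lipid-anchored ciliary protein mutated in the cpk mouse, a model of recessive disease. It had 0.990, 0.944 and 0.860 FPKM in mifepristone libraries with NaCl, against 8.99, 9.71 and 9.30 FPKM in vehicle libraries with NaCl. Without NaCl it had 1.94, 2.20 and 2.19 FPKM in mifepristone libraries, against 14.9, 14.3 and 13.3 FPKM in vehicle libraries. The lowest of these values rest on 105 to 120 reads per library, and libraries of a group lay close together. The fall was 6.87-fold with NaCl (-2.78, SE 0.058, limma adjusted p = 2.34e-11) and 5.63-fold without it (-2.49, SE 0.058, limma adjusted p = 5.89e-11). Only 0.128% of tested genes had a value as low or lower with NaCl and 0.142% without it. On the recovered reads, where no pseudocount of 0.5 FPKM weighs on low genes, limma-voom gave -3.32 with NaCl and -2.74 without it.

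Dzip1l (ENSMUSG00000037784, chromosome 9, 99629496 to 99669256, plus strand) encodes a basal body protein of the ciliary transition zone, also mutated in recessive disease. Its level was 2.29, 2.29 and 2.54 FPKM in mifepristone libraries with NaCl, against 5.70, 5.75 and 5.69 FPKM in vehicle libraries with NaCl. Without NaCl it was 3.56, 3.62 and 2.91 FPKM in mifepristone libraries, against 6.21, 6.76 and 6.84 FPKM in vehicle libraries. The groups were apart in both media. Dzip1l fell 2.16-fold with NaCl (-1.11, SE 0.071, limma adjusted p = 1.42e-07) and 1.85-fold without it (-0.88, SE 0.071, limma adjusted p = 9.94e-07).

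Bicc1 (ENSMUSG00000014329, chromosome 10, 70922832 to 71159700, minus strand) encodes bicaudal C, an RNA-binding protein that is mutated in the jcpk and bpk mice and regulates the translation of bound mRNAs. It had 32.8, 31.9 and 33.4 FPKM in mifepristone libraries with NaCl, against 119.8, 126 and 125 FPKM in vehicle libraries with NaCl. Without NaCl it had 35.0, 34 and 26.9 FPKM in mifepristone libraries, against 77.1, 83.7 and 86.5 FPKM in vehicle libraries. Mifepristone levels were much alike in both media, while vehicle levels were higher with NaCl. The fall was 3.74-fold with NaCl (-1.90, SE 0.085, limma adjusted p = 7.44e-09) and 2.57-fold without it (-1.36, SE 0.085, limma adjusted p = 1.3e-07). An antisense gene that overlaps exons of Bicc1, 4930533K18Rik, stayed at or below 1.1 FPKM in every group mean.

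The transcription factor genes of the set encode zinc finger proteins of the Gli-similar family, which also localize to cilia. Glis2 (ENSMUSG00000014303, chromosome 16, 4594713 to 4624924, plus strand) is mutated in a form of nephronophthisis, a recessive disease with small cysts and fibrosis. It had 9.47, 9.23 and 9.84 FPKM in mifepristone libraries with NaCl, against 36.3, 37.1 and 34.5 FPKM in vehicle libraries with NaCl. Without NaCl it had 17.7, 18.7 and 16.6 FPKM in mifepristone libraries, against 34.8, 35.2 and 35.6 FPKM in vehicle libraries. Both vehicle groups lay at nearly the same level, and the mifepristone libraries with NaCl lay below those without it. Glis2 fell 3.64-fold with NaCl (-1.87, SE 0.045, limma adjusted p = 6.69e-11) and 1.97-fold without it (-0.98, SE 0.045, limma adjusted p = 1e-08). Exons of Glis2 overlap those of Pam16 on the opposite strand, which had group means of 22.5 to 26.7 FPKM.

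Glis3 (ENSMUSG00000052942, chromosome 19, 28258851 to 28680077, minus strand) is mutated in a syndrome of neonatal diabetes with cystic kidneys. Its level was 7.64, 7.67 and 8.39 FPKM in mifepristone libraries with NaCl, against 20.1, 22.8 and 21.6 FPKM in vehicle libraries with NaCl. Without NaCl it was 10.7, 10.1 and 7.28 FPKM in mifepristone libraries, against 18.8, 21.7 and 22.5 FPKM in vehicle libraries. The groups did not overlap, and mifepristone C and vehicle A were again the lowest of their groups. Glis3 fell 2.62-fold with NaCl (-1.39, SE 0.119, limma adjusted p = 1.75e-06) and 2.21-fold without it (-1.14, SE 0.119, limma adjusted p = 9.15e-06).

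The subunit genes of glucosidase II, the endoplasmic reticulum enzyme that trims glucose from new glycoproteins, moved little. Ganab (ENSMUSG00000071650, chromosome 19, 8898071 to 8916672, plus strand) encodes the catalytic alpha subunit. It had 130.1, 131 and 135 FPKM in mifepristone libraries with NaCl, against 155, 157 and 157 FPKM in vehicle libraries with NaCl. Without NaCl it had 133, 135 and 131 FPKM in mifepristone libraries, against 138, 142 and 140.3 FPKM in vehicle libraries. The libraries were apart in both media, by a small margin without NaCl. Ganab fell 1.18-fold with NaCl (-0.24, SE 0.035, limma adjusted p = 0.000107), and without NaCl the difference was -0.07 (SE 0.035, limma adjusted p = 0.09). The difference without NaCl was 0.04 under quantile normalization. With library weights it was -0.09 and passed (limma adjusted p = 0.0213).

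Prkcsh (ENSMUSG00000003402, chromosome 9, 22002806 to 22014222, plus strand) encodes the regulatory beta subunit, mutated in polycystic liver disease. Its level was 66.7, 64.3 and 66.0 FPKM in mifepristone libraries with NaCl, against 75.4, 73.1 and 72.1 FPKM in vehicle libraries with NaCl. Without NaCl it was 56.6, 58.1 and 65.1 FPKM in mifepristone libraries, against 70.9, 70.0 and 67.9 FPKM in vehicle libraries. The groups did not overlap, and mifepristone C was nearest to the vehicle libraries. Prkcsh fell 1.12-fold with NaCl (-0.16, SE 0.050, limma adjusted p = 0.0169) and 1.16-fold without it (-0.22, SE 0.050, limma adjusted p = 0.0033). The call with NaCl was lost without mifepristone plus NaCl B (-0.15, limma adjusted p = 0.0598) and without vehicle plus NaCl A (-0.14, limma adjusted p = 0.0621).

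In these libraries the genes with the longest and the shortest exons lay apart, with exceptions between them. Pkd1 and Pkhd1, with 17415 and 14310 bases of exons, deviated by -0.46 and -0.42 (log2) from their group means in mifepristone C and by -0.31 and -0.32 in vehicle A. Cys1, with 2952 bases, deviated by 0.04 in mifepristone C and 0.07 in vehicle A. Pkd2, with 10169 bases, deviated by -0.15 in mifepristone C and -0.05 in vehicle A, less than Glis3 with 8842 bases (-0.32 and -0.15) and Bicc1 with 7441 bases (-0.24 and -0.09).

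**Figure D3:**
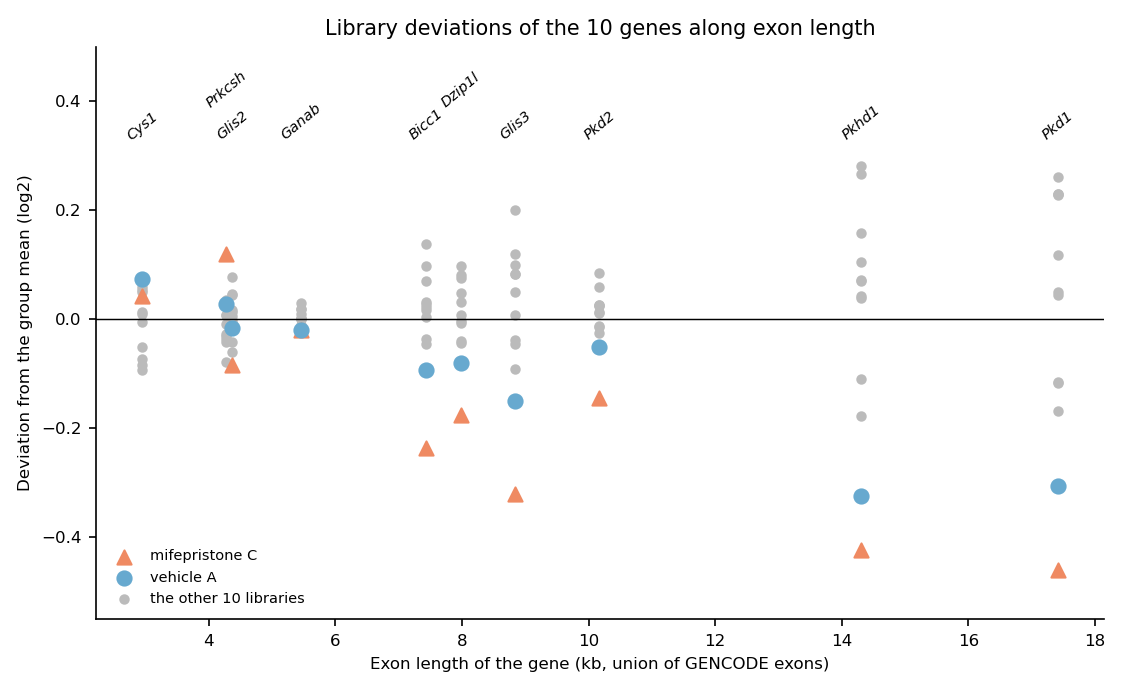
Deviation of each library from its group mean of log2(FPKM + 0.5) for the 10 genes, against the gene's exon length in kilobases on GENCODE M21. Orange triangles are mifepristone C, blue circles vehicle A and grey points the other 10 libraries. In both named libraries the deviation is lowest for Pkhd1 and Pkd1.

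A second question was how the genes responded to the added NaCl in each kind of cell. In mifepristone cells Glis2, Cys1, Dzip1l and Pkd2 fell with NaCl and Prkcsh rose slightly, which is 4 lower and 1 higher of 10, where 58.7% of all tested genes were called, 34.2% lower and 24.5% higher. In vehicle cells Bicc1 and Ganab rose and Cys1 and Dzip1l fell, which is 2 higher and 2 lower of 10, where 56.7% of all tested genes were called, 25.2% higher and 31.5% lower. These 5 and 4 of 10 lie near the shares over all tested genes and are no result about the set. The counts were 8 and 7 of 10 without vehicle A and mifepristone C, where 9124 and 8518 of 13900 tested genes were called. No gene of the set was called with a change of at least 2-fold, against 1.83% of all tested genes lower and 3.33% higher in mifepristone cells, and 1.28% lower and 2.73% higher in vehicle cells. Median log2 fold changes of the 10 were -0.21 in mifepristone cells and 0.03 in vehicle cells, against -0.06 and -0.02 over all tested genes.

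Cys1 fell with NaCl in both kinds of cell, 1.82-fold in mifepristone cells (-0.87, SE 0.058, limma adjusted p = 2.55e-07) and 1.49-fold in vehicle cells (-0.58, SE 0.058, limma adjusted p = 9.04e-06). Glis2 fell 1.81-fold in mifepristone cells (-0.86, SE 0.045, limma adjusted p = 3.45e-08), and in vehicle cells the difference was 0.03 (95% interval -0.07 to 0.13, limma adjusted p = 0.593). Bicc1 rose 1.5-fold in vehicle cells (0.58, SE 0.085, limma adjusted p = 0.000161), to a mean of 124 ± 3.41 FPKM with NaCl, against 82.4 ± 4.81 FPKM without it (SD, n = 3 each). In mifepristone cells the difference of Bicc1 was 0.04 (95% interval -0.15 to 0.23, limma adjusted p = 0.711), and -0.08 without mifepristone C.

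Smaller responses were those of Dzip1l, Pkd2, Ganab and Prkcsh. Dzip1l fell 1.34-fold in mifepristone cells (-0.42, limma adjusted p = 0.000394) and 1.14-fold in vehicle cells (-0.19, limma adjusted p = 0.0381). Its call in vehicle cells was lost without any 1 of vehicle plus NaCl A, B or C, vehicle B or vehicle C (-0.20 to -0.17, limma adjusted p = 0.0771 to 0.108), under median-ratio scaling (limma adjusted p = 0.0855) and with no filter on low values (limma adjusted p = 0.0819). Pkd2 fell 1.16-fold in mifepristone cells (-0.21, limma adjusted p = 0.00662), with a difference of -0.05 in vehicle cells (limma adjusted p = 0.453), which was -0.08 and passed without vehicle A and mifepristone C (limma adjusted p = 0.0445). Ganab rose 1.11-fold in vehicle cells (0.16, limma adjusted p = 0.00291), with a difference of -0.01 in mifepristone cells (limma adjusted p = 0.756). Prkcsh rose 1.1-fold in mifepristone cells (0.13, limma adjusted p = 0.0417) with overlapping libraries, and this call was lost when any 1 library other than mifepristone C, vehicle A and vehicle C was left out (0.09 to 0.15, limma adjusted p = 0.053 to 0.147). In vehicle cells Prkcsh differed by 0.08 (limma adjusted p = 0.207), which was 0.09 and passed without vehicle A and mifepristone C (limma adjusted p = 0.0348), and 0.14 under quantile normalization (limma adjusted p = 0.00434).

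The remaining genes did not pass the test for NaCl. Pkhd1 differed by -0.36 in mifepristone cells (limma adjusted p = 0.118) and -0.30 in vehicle cells (limma adjusted p = 0.191). Pkd1 differed by -0.13 in mifepristone cells (limma adjusted p = 0.603) and 0.32 in vehicle cells (limma adjusted p = 0.187), and Glis3 by -0.21 in mifepristone cells (limma adjusted p = 0.151) and 0.04 in vehicle cells (limma adjusted p = 0.811). These 3 genes had the largest standard errors of the set, between 0.119 and 0.196. Without mifepristone C the differences of Pkhd1 (-0.57, limma adjusted p = 0.0075) and Glis3 (-0.37, limma adjusted p = 0.00168) in mifepristone cells passed. With both vehicle A and mifepristone C left out, that of Pkhd1 in vehicle cells (-0.46, limma adjusted p = 0.00283) and that of Pkd1 in mifepristone cells (-0.36, limma adjusted p = 0.0269) passed too.

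**Figure D4:**
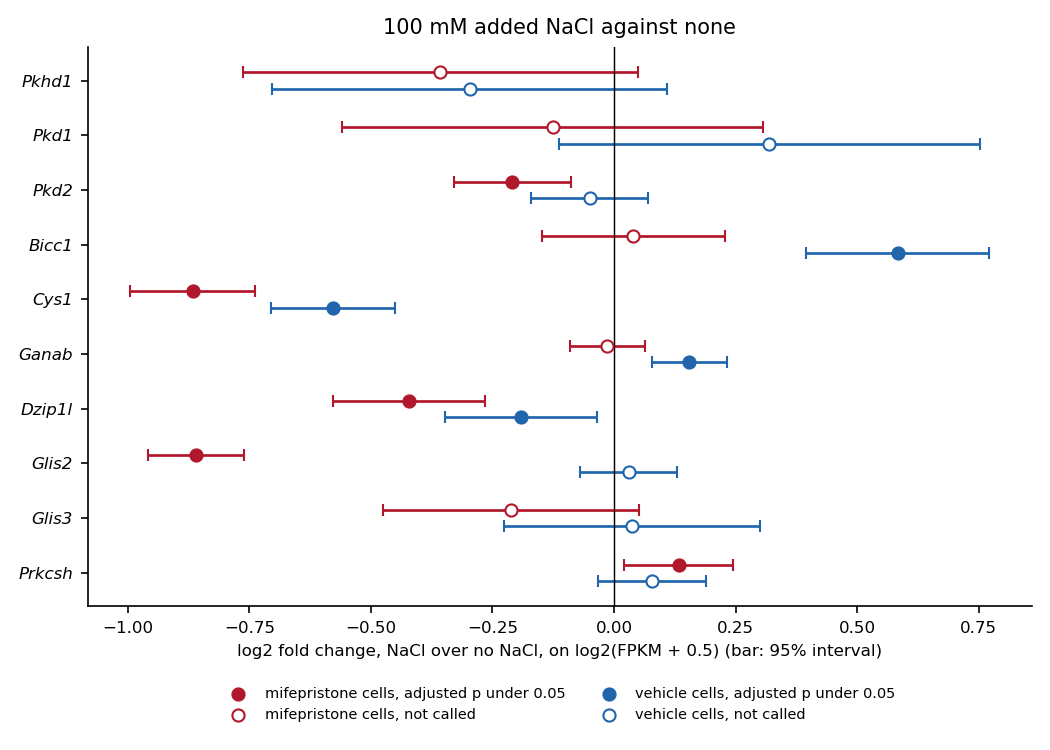
log2 fold changes of 100 mM added NaCl over none for the 10 genes, in mifepristone cells (red) and vehicle cells (blue), on the log2(FPKM + 0.5) scale. Points are limma estimates, bars their 95% intervals, and open points did not pass an adjusted p under 0.05. Glis2 falls in mifepristone cells with a vehicle value near 0, and Bicc1 rises in vehicle cells with a mifepristone value near 0.

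The third question was whether the mifepristone effect differed between media, tested as the interaction of mifepristone and NaCl. Glis2, Bicc1, Cys1 and Ganab fell further with mifepristone when NaCl was added, and no gene of the set differed the other way. This is 4 lower and 0 higher of 10, where 31.1% of all tested genes were called, 17.5% lower and 13.6% higher. The 4 of 10 called lie near the share over all tested genes and are no result about the set. At 2-fold or more 0 of the 10 were called, against 0.84% of all tested genes lower and 1.05% higher. The interaction of Glis2 was -0.89 (SE 0.064, limma adjusted p = 3.04e-06), and 1.49% of tested genes had a value as low or lower. That of Bicc1 was -0.54 (SE 0.120, limma adjusted p = 0.00588). Cys1 had -0.29 (SE 0.082, limma adjusted p = 0.0215), which was -0.58 by limma-voom on recovered reads and -0.13 with a pseudocount of 1 FPKM (limma adjusted p = 0.19). The call of Cys1 was also lost without vehicle plus NaCl B or mifepristone B (-0.26 each, limma adjusted p = 0.0581 and 0.0545). Ganab had -0.17 (SE 0.049, limma adjusted p = 0.0238), a call lost without any 1 of mifepristone plus NaCl A or B, vehicle plus NaCl B or C, or mifepristone B (limma adjusted p = 0.0587 to 0.0656).

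The other 6 genes had interactions between -0.45 (Pkd1) and 0.05 (Prkcsh) that did not pass. Leaving out mifepristone C alone brought the number called to 8 of 10, by adding Pkd1 (-0.68, limma adjusted p = 0.0249), Pkd2 (-0.23, limma adjusted p = 0.00229), Dzip1l (-0.32, limma adjusted p = 0.0042) and Glis3 (-0.41, limma adjusted p = 0.00861). The count over all tested genes was then 6739 of 13977, against 4374 of 14044 with all libraries. Pkd1 (-0.52, limma adjusted p = 0.0327) and Pkd2 (-0.21, limma adjusted p = 0.00294) also passed without both vehicle A and mifepristone C. So did Dzip1l (-0.28, limma adjusted p = 0.00616) and Glis3 (-0.33, limma adjusted p = 0.00789). In that setting 8 of the 10 and 6392 of 13900 tested genes were called. The interaction of Pkhd1 was -0.06 with all libraries (95% interval -0.63 to 0.51), a range that holds differences in either direction.

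The authors' deposited table marks genes with a nearby ChIP peak. It marks 6 of the 10 genes (60%): Pkhd1, Cys1, Bicc1, Dzip1l, Glis2 and Glis3. Pkd1, Pkd2, Ganab and Prkcsh carry no mark. The mark stands at 24.8% of all 23374 genes in the authors' deposited table and at 28.4% of the tested genes. The marked genes are the 6 of the set that fell most with mifepristone without NaCl, by 1.85-fold to 5.63-fold. Over all tested genes, 63% of those called at least 2-fold lower in that comparison were marked, 38.2% of those called at least 2-fold higher, 28.6% of those called lower by less and 22.5% of those not called.

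For the same 10 genes, the authors' deposited table for mifepristone against vehicle without NaCl lists log2 fold changes of -2.73 for Cys1, -2.55 for Pkhd1, -1.35 for Bicc1 and 1.18 for Pkd1. Adjusted p-values under 1 stand in the authors' deposited table for Cys1 (2.38e-94), Pkhd1 (6.95e-11) and Bicc1 (0.00128). The other 7 genes are listed with an adjusted p of 1, Pkd1 and Glis3 (-1.15) among them. No gene in that deposited table with an adjusted p below 1 has an absolute log2 fold change under 1.07, so a minimum fold change may be part of the authors' test. For the interaction the authors' deposited table lists -0.92 for Glis2, -0.58 for Cys1 and -0.55 for Bicc1, each with an adjusted p of 1. No gene with an adjusted p below 1 for the interaction has an absolute value under 1.21 there. A minimum size may be part of that test too, so these entries do not show that an interaction was absent.

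Genes that work with these 10 were counted by lists that were chosen with earlier results known. Of 7 polycystin and fibrocystin relatives only Pkd2l2, named after its values were seen, passed the filter, and the fibrocystin-like gene Pkhd1l1 stayed at or below 0.041 FPKM in every group mean. Pkd2l2 differed by -0.13 with NaCl and 0.02 without it with mifepristone, neither of which passed. With NaCl it passed with library weights (-0.13, limma adjusted p = 0.0406) and in a fit of only the groups compared (limma adjusted p = 0.0473), and without NaCl it was 0.22 with library weights (limma adjusted p = 0.0245). Endoplasmic reticulum genes of polycystic liver disease and glycoprotein maturation showed no common direction with mifepristone. Of 17 tested, 6 were lower and 3 higher with NaCl, and 7 were lower and 3 higher without it. The medians were -0.03 in both media. Over all tested genes 31.9% were called lower and 26.8% higher with NaCl, and 31.5% lower and 28.3% higher without it. Alg9, a mannosyltransferase, fell 1.17-fold with NaCl (-0.23) and 1.25-fold without it (-0.32). Sec63, a subunit of the translocon, fell 1.20-fold with NaCl (-0.27, limma adjusted p = 2.01e-05), with a difference of -0.02 without it (limma adjusted p = 0.626). Lrp5, a Wnt co-receptor, fell 1.31-fold with NaCl (-0.39), with a difference of 0.01 without it. Dnajb11, a chaperone cofactor, rose 1.20-fold without NaCl (0.26, limma adjusted p = 0.00272). Its value with NaCl was 0.17, a call (limma adjusted p = 0.0271) lost without any 1 library with NaCl other than mifepristone plus NaCl C (0.0561 to 0.0848).

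Nephronophthisis genes, many but not all of which encode proteins of the ciliary transition zone and inversin compartment, were called lower more often than higher with mifepristone. Of 19 tested, 11 were lower and 1 higher with NaCl, where 31.9% of all tested genes were called lower, and 12 were lower and 2 higher without it, where 31.5% were. The medians were -0.22 and -0.30, against -0.03 and -0.01 over all tested genes. Nek8, a kinase of the inversin compartment, averaged 5.74 FPKM with mifepristone and NaCl and 7.07 FPKM with vehicle and NaCl (1.21-fold lower), and 5.06 FPKM with mifepristone alone and 7.49 FPKM with vehicle alone (1.44-fold lower). Tmem67, the transition zone receptor meckelin, fell 1.25-fold without NaCl (-0.32, limma adjusted p = 0.000302), with a difference of -0.07 with NaCl. Inversin (Invs) fell 1.21-fold and its partner Anks6 1.23-fold without NaCl. With NaCl both had -0.22, and these calls were lost for Invs (limma adjusted p = 0.0521 to 0.109) without any 1 library with NaCl other than mifepristone plus NaCl C. That of Anks6 was lost (0.0547 to 0.0744) without mifepristone plus NaCl B, vehicle plus NaCl A or vehicle plus NaCl B. Dcdc2a, named after its values were seen, lay furthest out of the list without NaCl, at 1.35 ± 0.149 FPKM with mifepristone and 8.89 ± 0.354 FPKM with vehicle (5.08-fold lower). With NaCl it was 3.70 ± 0.0851 FPKM with mifepristone and 5.79 ± 0.234 FPKM with vehicle (1.5-fold lower; SD, n = 3 each).

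Partners of Bicc1, which share the inversin compartment or act on cyclic AMP and mRNA decay, overlap the nephronophthisis list: Invs, Nek8 and Anks6 were tested in both, so the counts are not separate. Of 9 tested, 8 were lower and 0 higher with NaCl, where 31.9% of all tested genes were called lower, and 6 were lower and 1 higher without it, where 31.5% were. The median was -0.28 in both media, and it is the value of Nek8 with NaCl and of Invs without it. The count of 8 was 5 without mifepristone plus NaCl B and without vehicle plus NaCl B. Adcy6, an adenylyl cyclase whose transcript is controlled by bicaudal C in mouse kidney, averaged 38.4 ± 2.35 FPKM with mifepristone and NaCl and 67.5 ± 1.94 FPKM with vehicle and NaCl (1.75-fold lower), and 24.6 ± 2.51 FPKM with mifepristone alone and 36.8 ± 2.62 FPKM with vehicle alone (1.49-fold lower; SD, n = 3 each). Pde4c, a cyclic AMP phosphodiesterase of cilia that was named after its values were seen, fell 7.20-fold with NaCl (-2.85, SE 0.065) and 8.96-fold without it (-3.16, SE 0.065). Anks3, a scaffold that binds bicaudal C, was the 1 gene of this list that rose, 1.12-fold without NaCl (0.16, limma adjusted p = 0.000541), with a difference of -0.03 with NaCl.

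Of the genes for the lipid binding and trafficking of cystin, 3 were lower and 2 higher of 7 with NaCl. Without NaCl 3 were lower and 3 higher, and the medians with and without it were -0.14 and 0.10. Shares over all tested genes, for this and the lists below, were 31.9% lower and 26.8% higher with NaCl. Without NaCl they were 31.5% lower and 28.3% higher. Unc119b, a carrier of myristoylated proteins to the cilium, fell 1.36-fold with NaCl (-0.44) and 1.31-fold without it (-0.39). Arl3, the GTPase that releases such cargo, fell 1.42-fold without NaCl (-0.51, limma adjusted p = 0.000104), and its difference with NaCl was -0.14 (limma adjusted p = 0.117). The difference with NaCl passed without vehicle A and mifepristone C (limma adjusted p = 0.0411), under quantile normalization (-0.16), with library weights (-0.12) and in a fit of only the groups compared. In the Gli and Glis family 3 were lower and 2 higher of 5 with NaCl, and 2 were lower and 2 higher without it. Gli3, a hedgehog pathway transcription factor, was 1.98-fold higher with NaCl (0.98) and 2.37-fold higher without it (1.25), opposite to Glis2 and Glis3. Glis1 averaged 0.738 FPKM with mifepristone and NaCl and 0.118 FPKM with vehicle and NaCl, and 1.36 FPKM with mifepristone alone and 0.302 FPKM with vehicle alone. Glis1 entered the test only through the mifepristone libraries without NaCl, so it had to differ there. The counts of this family are over 5 genes that include Glis1, and so are not free of the filter. In the list of cyst-associated signalling 7 were lower and 3 higher of 13 with NaCl, and 6 were lower and 3 higher without it, with medians of -0.20 and -0.07.

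**Figure D5:**
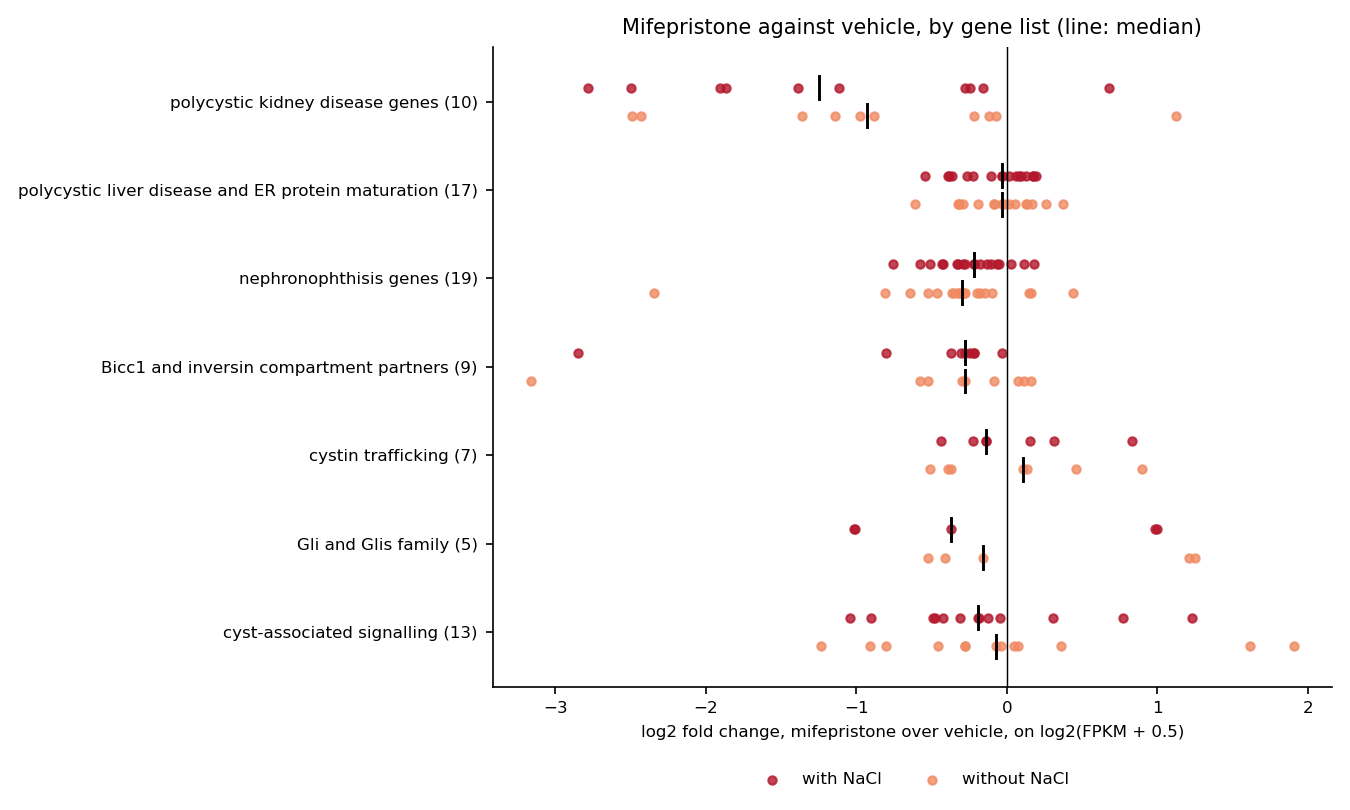
log2 fold changes of mifepristone over vehicle, with NaCl (dark red) and without NaCl (orange), for the 10 genes and for each tested gene of 6 related lists, with the number tested in brackets and a black line at the median. The median of the 10 genes is -1.25 with NaCl and -0.93 without it, and the medians of the other lists lie between -0.37 and 0.10.

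Counts of these lists in the NaCl comparisons were mixed, and no list was tested as a set. Over all tested genes, 34.2% were called lower and 24.5% higher in mifepristone cells. In vehicle cells these shares were 31.5% lower and 25.2% higher. In mifepristone cells NaCl gave 5 lower and 3 higher of 17 liver disease and maturation genes, 6 lower and 5 higher of 19 nephronophthisis genes, 3 lower and 3 higher of 9 partners of Bicc1 and 3 lower and 0 higher of 7 cystin trafficking genes. In vehicle cells it gave 6 lower and 3 higher of 17, 5 lower and 2 higher of 19, 3 lower and 5 higher of 9, and 4 lower and 1 higher of 7, in the same order of lists. The Gli and Glis family had 4 lower and 0 higher of 5 in mifepristone cells and 2 lower and 1 higher in vehicle cells, and the signalling list 5 lower and 1 higher of 13 in mifepristone cells and 5 lower and 4 higher in vehicle cells. Pkd2l2 was higher with NaCl in vehicle cells (0.20, limma adjusted p = 0.0254) and differed by 0.05 in mifepristone cells.

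Genes with the pattern most like each of the 7 genes that varied by at least 1 (log2) between group means were found by Pearson's r of log2(FPKM + 0.5) over the 12 libraries, a description with no test in which all points share the 4 groups. The closest were Gvin1 for Pkhd1 (0.998), Hivep1 for Pkd1 (0.992), Megf9 for Bicc1 (0.997), Clcf1 for Cys1 (0.998), Cep97 for Dzip1l (0.996), Zadh2 for Glis2 (0.996) and Slc25a23 for Glis3 (0.997). Next came Rpgrip1l, a nephronophthisis gene, for Pkhd1 (0.998), Pcyt2 for Cys1 (0.998) and Rfx3, a transcription factor of ciliary genes, for Dzip1l (0.994). For the other genes it was Apc for Pkd1 (0.988), Erlin2 for Bicc1 (0.997), Epb41l3 for Glis2 (0.996) and Zfp318 for Glis3 (0.996). Pkd2, Ganab and Prkcsh varied by less than 1 (0.33, 0.24 and 0.29) and were not compared in this way.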

How the data were processed

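Poly(A) TruSeq libraries were sequenced from 12 samples of IMCD3 subclone 53a, per the labels' protocols. Deposited by the authors were a table of 48034 genes with FPKM in each library, and comparison tables with a mean signal per gene (normalized counts over all 12 libraries, per the file headers), log2 fold changes, adjusted p-values and marks of a nearby ChIP peak. The submitters' processing notes name Trimmomatic 0.32, STAR 2.4.2a, SAMtools 1.0, DESeq2 1.12.3 and GRCm38 (mm10), with no role or order. The counting program, its annotation and its use of strand are not stated in these sources. The deposited columns named for the mutant were paired with mifepristone titles through NaCl, letter and knowledge of the study. The gene of the mutated factor and 1 listed gene are not reported here.

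FPKM, scaled so that a gene's mean over libraries equals its deposited mean signal, was a whole multiple of the worth of 1 read in 100% of values of 32627 genes (tolerance 0.05). A count of 0 allows up to 3 reads, or 0.061 to 0.072 CPM, a limit for counting error alone. Comparisons were fitted in R 4.3.3 by limma 3.58.1 to log2(FPKM + 0.5), with empirical Bayes that was robust and trended, 4 group means, all 12 libraries, 8 residual degrees of freedom, and Benjamini-Hochberg adjustment over the 14044 genes with at least 1 FPKM in at least 3 libraries. The fit was tested on simulated data. Mifepristone was compared with vehicle in each medium, NaCl with none in each kind of cell, and both together as an interaction. Alternatives were 2 pseudocounts, 2 filters, 2 scalings, the letter as a block, library weights, only the groups compared, limma-voom on recovered reads, a stricter threshold, each library left out and, chosen after seeing the data, vehicle A and mifepristone C left out together.

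The genes, lists and naming rule were chosen with earlier results of these data known. The rule names the 10 genes in every comparison, 18 fixed list genes, and the genes of most similar pattern, and gives all others by count. Listed genes are named here in the mifepristone comparisons only, 3 of them are given by count only, and of the 3 genes of most similar pattern per gene only the first 2 are named. Positions and exon lengths are from GENCODE M21 on GRCm38, which holds 98.5% of the gene identifiers and gave a length for 13916 of the 14044 tested genes. Software for tables was pandas 2.3.3 with numpy 2.4.6 on Python 3.11.15, and for figures matplotlib 3.10.9.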

Additional observations from a re-analysis of the deposited data

Results flagged for a closer look

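The mifepristone effect differed between the media with and without NaCl for 4 of the 10 genes, by the interaction term of the limma fit over all 12 libraries. For Glis2 the interaction was -0.89 (limma adjusted p = 3.04e-06), with a mifepristone effect of -1.87 with NaCl and -0.98 without it. For Bicc1 it was -0.54 (limma adjusted p = 0.00588), with effects of -1.90 with NaCl and -1.36 without it. For Cys1 it was -0.29 (limma adjusted p = 0.0215), with effects of -2.78 and -2.49 in the same order of media. For Ganab it was -0.17 (limma adjusted p = 0.0238), with effects of -0.24 and -0.07. Over all tested genes 31.1% had an interaction past the same threshold, so 4 of 10 lies near that share and is no result about the set. The calls of Cys1 and Ganab were each lost when certain single libraries were left out. At an adjusted p under 0.01 only Glis2 and Bicc1 were called, 2 of the 10. The causes of these differences were not tested.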

How the results depend on the processing

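Of 478 alternative values of the 10 genes for the mifepristone comparisons, 470 kept their direction and their side of the threshold, and over all comparisons 1104 of 1185 did. The estimate was fixed under the filters, the letter as a block, the stricter threshold and the fit of only the groups compared. It was also fixed when a library outside the groups compared was left out. These tallies thus include many values whose direction could not change. Values near 0 changed sign. Under quantile normalization Ganab had 0.044 with mifepristone without NaCl and 0.074 with NaCl in mifepristone cells, where median-ratio scaling gave 0.033. Glis3 with NaCl in vehicle cells had -0.0040 with library weights, -0.0054 without vehicle plus NaCl B, and -0.038 without vehicle A, alone or with mifepristone C (-0.038 to 0.086 with 1 library left out). Bicc1 with NaCl in mifepristone cells had -0.058 with library weights and -0.078 without mifepristone C, alone or with vehicle A (-0.078 to 0.11 with 1 library left out). The interaction of Pkhd1 was 0.072, 0.018 and 0.10 without mifepristone A, mifepristone B and vehicle A (-0.27 to 0.10 over all libraries). Of the listed genes without NaCl, Lrp5 had -0.0079 under quantile normalization and -0.018, -0.034 and -0.061 without mifepristone A, mifepristone B and vehicle A, Pkd2l2 had -0.027 and -0.046 without mifepristone A and vehicle B (-0.046 to 0.075), and Sec63 had 0.0063 without vehicle A and mifepristone C. None of these signs belonged to a called value.

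Without a filter on low values 6088 genes were called higher with mifepristone and NaCl and 5876 with NaCl in mifepristone cells, where more genes were tested. With a mean FPKM of at least 5, where fewer were tested and Dzip1l was not, these were 2310 and 2026, with 5414 called either way with mifepristone and NaCl and 2807 (985 higher) for the interaction. The interaction had 7156 calls (3377 higher, 3779 lower) and 8 of the 10 genes with library weights, and 2618 (1144 higher, 1474 lower) and 2 of the 10 at an adjusted p under 0.01. Each of these settings tested 14044 genes. Library weights called 8 of the 10 for NaCl in vehicle cells, where 11394 genes were called against 7965. Without vehicle A and mifepristone C together, 7 of the 10 were called for NaCl in vehicle cells, 8 in mifepristone cells and 8 for the interaction, where 8518, 9124 and 6392 of 13900 genes were called, and the cause was not tested. With each library left out in turn, the interaction had 3437 to 6739 calls (1447 to 3144 higher, 1918 to 3595 lower) and 2 to 8 of the 10 genes. NaCl called 3 to 4 of the 10 in vehicle cells, where 6901 to 8946 genes were called. In mifepristone cells it called 4 to 7, where 7150 to 8649 genes were called. Mifepristone called 9 to 10 of the 10 with NaCl, where 7248 to 9196 genes were called. Without NaCl it called 8 to 9, where 7571 to 9129 genes were called. Of the 10 genes Cys1 had the fewest reads, 105 in a library. The fit of only the groups compared gives no separate value for the interaction, which uses all 12 libraries. With a mean FPKM of at least 5 the nephronophthisis genes called lower with mifepristone numbered 5 in each medium, against 11 with NaCl and 12 without it in the main filter, since fewer were tested.

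Libraries of the same letter did not deviate together (correlations of -0.50 to 0.29, of which 6 of 18 pairs were over 0.1), so the letters were not taken to pair them. With the letter as a block 7780 and 7972 genes were called for mifepristone with and without NaCl, 7696 and 7479 for NaCl in mifepristone and vehicle cells, and 3724 for the interaction. Of the 10 genes 10, 8, 4, 3 and 3 were called in the same order. The block ended the calls of Dzip1l with NaCl in vehicle cells (limma adjusted p = 0.065), Prkcsh with NaCl in mifepristone cells (0.0709) and the interaction of Ganab (0.0553). With mifepristone and NaCl it ended those of Dnajb11 (0.054) and Invs (0.0564), and Pkd2l2 passed (0.042).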
